A study of Mus musculus with 12 samples.

Results

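MHC class II presentation is described here by 8 genes of the mouse: Cd74, H2-Aa, H2-Ab1, H2-Eb1, H2-DMa, H2-DMb1, H2-DMb2 and Ciita. They were found by symbol among the 54532 genes of the deposited table, and each symbol occurred once. The measurements come from RNA sequencing of primary hepatocytes from 6-week-old mice. G3bp1-Flox mice (Flox) served as controls, and G3bp1-HKO mice (HKO) carry a hepatocyte-specific knockout of this stress granule gene, per the labels. Cells of each genotype received BSA or PA, and each of the resulting groups (Flox_BSA, Flox_PA, HKO_BSA, HKO_PA) has 3 libraries, 12 in all. In hepatocyte research PA usually stands for palmitic acid and BSA for its albumin carrier, but the labels do not spell them out. The sources used here do not give the Cre driver, the strain, the dose or the duration. Nor is it stated whether the libraries of a group came from different mice, so the p-values measure the spread between these samples, which may be technical.

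MHC class II molecules display peptides from engulfed proteins to CD4+ T cells. An alpha and a beta chain assemble in the endoplasmic reticulum with the invariant chain, which blocks the groove until lysosomal proteases trim it away and the DM heterodimer exchanges the remaining fragment for peptide. In the liver the pathway is known from Kupffer cells, dendritic cells, B cells and endothelium, and hepatocytes carry little of it at rest. Transcription depends on CIITA, a coactivator that sits on RFX, CREB and NF-Y proteins bound to the X and Y boxes of class II promoters.

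The promoter elements are shown as background on these genes, and their part in the expression values was not tested. RefSeq promoter windows (GRCm38.p6, 250 bases before to 50 bases after each start) were at hand for 5 of the 8 genes, in 6 windows: H2-Aa, H2-Eb1, H2-DMb1, H2-DMb2 and, with 2 starts, H2-DMa. The search used ATTGG for the Y box, GCAAC for the core of the X box, and AACNGATG, a variant chosen after the sequences had been seen, each on both strands. Stretches of 74 bases are printed for an alpha chain, a beta chain and a DM chain. The capitals mark the X box letters, then the Y box letters.
H2-Aa: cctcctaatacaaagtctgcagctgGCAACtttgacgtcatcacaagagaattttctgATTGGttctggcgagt
H2-Eb1: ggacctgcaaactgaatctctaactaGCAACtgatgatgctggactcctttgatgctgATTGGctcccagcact
H2-DMb2: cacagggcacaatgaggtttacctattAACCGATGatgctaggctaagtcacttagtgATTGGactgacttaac
The H2-Aa stretch is chr17:34287856-34287929 on the minus strand, and GENCODE M21 has no feature there. The H2-Eb1 stretch is chr17:34305750-34305823 on the plus strand, in an intron of the antisense transcript Gm20513. The H2-DMb2 stretch is chr17:34145101-34145174 on the plus strand, in an intron of the gene's longest transcript.

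The Y box letters began 48 bases upstream of the RefSeq start in H2-Aa, 59 bases upstream in H2-Eb1, 61 bases upstream in H2-DMb1 and 90 bases upstream in H2-DMb2. The X box core preceded them in H2-Aa and H2-Eb1, with 28 and 27 bases between. In H2-DMb1 and H2-DMb2 the variant preceded the Y box instead, starting 92 and 121 bases upstream. H2-Eb1 holds both forms of the X box letters in 1 overlapping stretch. Of the H2-DMa windows, 1 had ATTGG 198 bases upstream and the other had none. These windows, 34125268 to 34125567 and 34122582 to 34122881, lie upstream of the deposited H2-DMa start at 34135182. The bases next to that start were not searched. Alone, ATTGG occurred in 37.4% and GCAAC in 35.2% of 32851 RefSeq promoter windows of the same length. GCAAC followed by ATTGG on the same strand at 15 to 35 bases occurred in 1.02%, and AACNGATG followed by ATTGG at that distance in 0.0274%. The latter share is 9 windows, among them those of H2-DMb1, H2-DMb2, H2-Eb1 and H2-Eb2. It is thus not independent of the genes described. AACNGATG alone was in 2.32% of the windows. A match describes letters in the window and says nothing of binding.

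Reads in genes, computed from the deposited FPKM values (fragments per kilobase of gene, scaled to library size), numbered 15.02 to 18.42 M per library (M, mega). G3bp1 itself was 41.2 ± 4.11 FPKM (SD, n = 3) in Flox_BSA and 8.25 ± 0.413 FPKM in HKO_BSA, and it fell by 2.19 on the log2 scale (limma, adjusted p = 3.5e-09). Hepatocyte markers were abundant in every library, with 10 listed genes summing to at least 7626 FPKM. The same libraries held macrophage transcripts: 16 markers summed to between 1872 and 2203 FPKM in Flox and between 228.5 and 412.2 FPKM in HKO, and none was at 0 in every library. Cd14 made up 61.7% of that sum in HKO_BSA and 67.05% in HKO_PA. Without Cd14 the other 15 markers summed to between 1580 and 1960 FPKM in Flox and between 79.6 and 147.6 FPKM in HKO. In bulk samples, fewer cells of a type and less RNA per cell cannot be told apart. The 2 HKO libraries numbered 1 stood apart from the rest, with gene-by-gene array weights of 0.145 each against 0.531 to 5.06 for the other libraries. Results are therefore also given without these libraries.

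Class II transcripts were high in Flox hepatocyte preparations and low in HKO. Summed over the 8 genes, the Flox level was 509.6 ± 17.1 FPKM with BSA and 532.3 ± 38.1 FPKM with PA, and the HKO level was 9.29 ± 3.86 FPKM with BSA and 9.99 ± 1.92 FPKM with PA (SD, n = 3 each). Of the 8 genes, 6 averaged 1 FPKM or more across all 12 libraries and were tested with limma on log2(FPKM + 1). H2-DMb2 and Ciita lay under that limit and are described without a test. H2-DMa and H2-DMb1 met the limit only through Flox, as their HKO group means were 0.223 to 0.292 FPKM. Their calls between genotypes are thus not independent of the filter. All 6 tested genes fell in HKO against Flox in BSA, where 10.8% of the 9743 genes tested fell, and all 6 fell in PA, where 18.8% fell. The median difference of the 6 was -4.45 in BSA and -4.57 in PA on the log2 scale, beside a median of 0.04 and 0.00 over all genes tested. PA against BSA gave 0 of 6 calls in Flox, where 2.21% of genes were called, and 0 of 6 in HKO, where 2.94% were called. At an unadjusted p under 0.05 there were 2 of 6 in Flox, beside 1552 of all 9743 genes tested. In HKO there were 0 of 6, beside 2031 of 9743. The interaction of genotype and PA gave 0 of 6 calls, where 0.267% of genes were called. At an unadjusted p under 0.05 it gave 1 of 6, beside 1699 of 9743 genes.

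**Figure D1:**
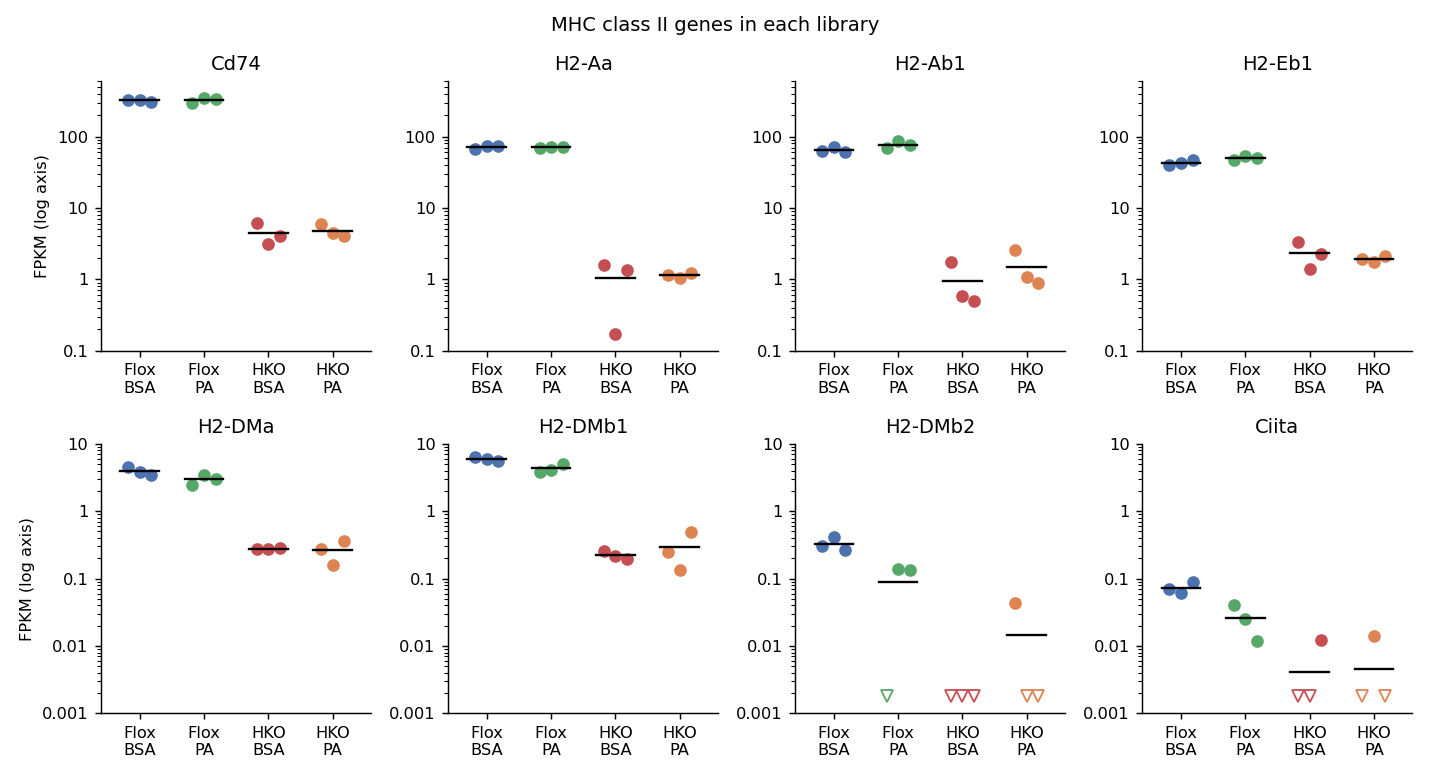
FPKM of the 8 class II genes in each library, on a log axis that is the same within each row of panels. Points are libraries, bars are group means, and open triangles at the bottom mark libraries at 0. Every HKO library lies below every Flox library for the 6 tested genes, while H2-DMb2 and Ciita overlap in PA.

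The invariant chain gene Cd74 (ENSMUSG00000024610, chromosome 18, 60803848 to 60812646, plus strand, GRCm38) was the most abundant member. Its protein escorts class II dimers to the endosome. The levels were 329.5, 328.8 and 302.6 FPKM in Flox_BSA and 299.6, 348.3 and 330.9 FPKM in Flox_PA. In HKO they were 6.21, 3.15 and 4.03 FPKM with BSA and 5.96, 4.41 and 4.09 FPKM with PA. The genotypes were far apart and the treatments overlapped within each genotype. The mean in HKO_BSA was 1.39% of that in Flox_BSA, 71.7-fold lower, a difference of -5.92 (SE 0.184, adjusted p = 1.13e-10, limma). For PA against BSA the difference was 0.03 in Flox (95% interval -0.37 to 0.42) and 0.12 in HKO (-0.28 to 0.51).

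H2-Aa (ENSMUSG00000036594, chromosome 17, 34282744 to 34287827, minus strand) and H2-Ab1 (ENSMUSG00000073421, chromosome 17, 34263209 to 34269418, plus strand) encode the alpha and beta chain of the I-A molecule. H2-Aa was at 66.2, 72.8 and 73.0 FPKM in Flox_BSA and at 68.6, 72.2 and 72.4 FPKM in Flox_PA. In HKO_BSA it was at 1.58, 0.169 and 1.36 FPKM, and in HKO_PA at 1.15, 1.06 and 1.24 FPKM. The second HKO_BSA library, with 5 H2-Aa reads, was the lowest of the 12. H2-Ab1 was at 63.2, 71.5 and 61.1 FPKM in Flox_BSA and at 70.1, 86.0 and 75.4 FPKM in Flox_PA. Its HKO values were 1.77, 0.581 and 0.495 FPKM with BSA and 2.55, 1.09 and 0.890 FPKM with PA. Both chains were lower in every HKO library than in any Flox library, with no overlap. In BSA, H2-Aa fell by 5.22 (SE 0.224, adjusted p = 4.19e-10, limma) and H2-Ab1 fell by 5.14 (SE 0.248, adjusted p = 1.13e-09).

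The ratio of H2-Aa to H2-Ab1 was near 1 in Flox and scattered in HKO. It was 1.05, 1.02 and 1.19 in Flox_BSA and 0.979, 0.839 and 0.960 in Flox_PA, so the 2 groups did not overlap, although neither chain passed the test for PA. In HKO the ratio ran from 0.291 to 2.75 with BSA and from 0.452 to 1.39 with PA. The reads behind the HKO ratios were few, between 5 and 56 per gene and library.

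H2-Eb1 (ENSMUSG00000060586, chromosome 17, 34305877 to 34316199, plus strand) encodes the beta chain of I-E. Its partner locus H2-Ea-ps, listed as a pseudogene in the deposited table, was at 0 in all 12 libraries. H2-Eb1 was at 40.1, 43.1 and 46.3 FPKM in Flox_BSA and at 47.2, 53.1 and 50.9 FPKM in Flox_PA. In HKO it was at 3.32, 1.39 and 2.30 FPKM with BSA and at 1.95, 1.73 and 2.13 FPKM with PA. Compared with the I-A chains, H2-Eb1 kept more of its level: the HKO_BSA mean was 5.42% of Flox_BSA, against 1.47% for H2-Aa and 1.45% for H2-Ab1. It fell by 3.76 in BSA (SE 0.176, adjusted p = 8.3e-10, limma) and by 4.13 in PA (adjusted p = 6.25e-10).

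As a ratio within each library, H2-Eb1 to H2-Aa was 0.592 to 0.634 in Flox_BSA and 0.688 to 0.736 in Flox_PA. In HKO_BSA it was 2.10, 8.23 and 1.69, and in HKO_PA 1.69, 1.64 and 1.72. The ratio of 8.23 rests on 26 H2-Eb1 and 5 H2-Aa reads. All 6 HKO ratios lay above all 6 Flox ratios. The ratio to H2-Ab1 was also higher in every HKO library, at 0.765 to 4.64 against 0.603 to 0.757 in Flox. Both ratios were chosen after the values had been seen and carry no test. No 50-base window of the H2-Eb1 transcript is identical in its paralog H2-Eb2, and the neighbouring antisense gene Gm20513 was at 0 in all 12 libraries.

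H2-DMa (ENSMUSG00000037649, chromosome 17, 34135182 to 34139101, plus strand) and H2-DMb1 (ENSMUSG00000079547, chromosome 17, 34153072 to 34160230, plus strand) encode the chains of DM, the peptide exchange factor. In Flox both stood well below the I-A chains. H2-DMb1 was at 6.37, 6.00 and 5.53 FPKM in Flox_BSA, and at 0.260, 0.214 and 0.195 FPKM in HKO_BSA. H2-DMa was at 4.52, 3.76 and 3.44 FPKM in Flox_BSA, and at 0.275, 0.271 and 0.282 FPKM in HKO_BSA. The HKO values of both rest on 3 to 11 reads per gene and library. In BSA the means differed 26.7-fold for H2-DMb1 and 14.2-fold for H2-DMa. The fitted differences were smaller, because the pseudocount of 1 FPKM exceeds the HKO levels: H2-DMb1 fell by 2.51 (SE 0.128, adjusted p = 2.16e-09, limma) and H2-DMa fell by 1.94 (SE 0.124, adjusted p = 2.25e-08). With a pseudocount of 0.01 FPKM, the H2-DMb1 difference was -4.69 and that of H2-DMa -3.77.

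H2-DMb2 (ENSMUSG00000037548, chromosome 17, 34143307 to 34151553, plus strand) is a second DM beta chain gene beside H2-DMb1. Its reads numbered 10, 13 and 8 in the Flox libraries with BSA and 0, 4 and 4 in those with PA. Each HKO_BSA library had 0, and the HKO_PA libraries had 1, 0 and 0. At equal depth, and with the floor of 3 reads set for the HKO_BSA group as a whole, the Flox_BSA level was at least 10.2-fold higher, counting error only. Of the 50-base windows of the H2-DMb2 transcript, 26.8% are identical in H2-DMb1. The sources used here do not say how reads from such stretches were counted, so the split between these 2 genes is uncertain.

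Ciita (ENSMUSG00000022504, chromosome 16, 10480059 to 10528418, plus strand), the gene of the class II coactivator, was barely detected. Flox libraries had 13, 11 and 15 reads with BSA and 7, 4 and 2 with PA. HKO libraries had 0, 0 and 2 reads with BSA and 0, 2 and 0 with PA. In FPKM the Flox_BSA libraries were at 0.0712, 0.0619 and 0.0878. Summed over libraries and set to equal depth, Flox_BSA was 19.2 times HKO_BSA (95% exact counting interval 4.96 to 164). All 3 HKO_BSA libraries lay below all 3 Flox_BSA libraries. In PA the HKO libraries overlapped those of Flox, and the ratio was 6.00 (1.36 to 54.8). In GENCODE M21 Ciita shares 3.45% of its exon bases with the antisense gene Dexi, and the use of strand in counting is not stated.

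For all 8 genes, the HKO_BSA libraries lay below the Flox_BSA libraries without overlap, where 14.1% of the 23820 genes with a value above 0 did so. In PA this held for 6 of 8, where 16.4% of genes did so. Without the 2 HKO libraries numbered 1, all 6 tested genes fell again in both comparisons, by between 1.94 for H2-DMa and 6.13 for Cd74 in BSA. Of 9743 genes tested, that fit called 3579 in BSA, 1911 of them higher in HKO. In PA it called 3668, 1791 of them higher in HKO. In both genotypes Cd74 had the highest mean, and the DM chains and Ciita had the lowest. In Flox_BSA the range over libraries of every member lay above that of the next, except that the ranges of H2-Aa and H2-Ab1 overlapped. Within each Flox_BSA library H2-Aa was the higher of these. In HKO_BSA the means ran Cd74, H2-Eb1, H2-Aa, H2-Ab1, and the range of each of these overlapped with that of its neighbour in this order.

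**Figure D2:**
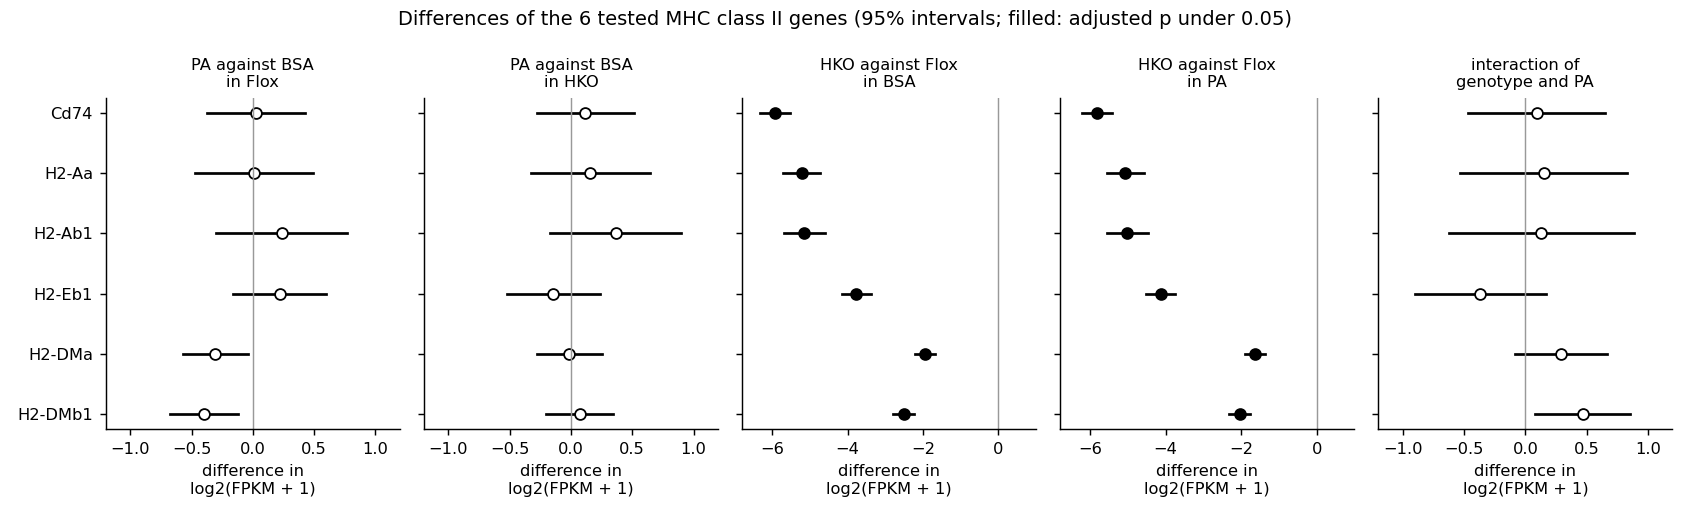
Differences of the 6 tested class II genes in 5 comparisons, on the log2(FPKM + 1) scale, with 95% intervals from limma. Filled circles passed an adjusted p of 0.05. All 6 are filled in both genotype comparisons, whose axis is wider, and none in the other panels, where H2-DMa and H2-DMb1 have intervals below 0 for PA in Flox.

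With PA in Flox, values of the invariant chain and of the peptide-binding chains were level or higher, and those of the DM chains and of Ciita were lower, although none of the 6 tested genes passed. Cd74 and H2-Aa had means at 101.9% and 100.6% of Flox_BSA, H2-Ab1 at 118.3% and H2-Eb1 at 116.8%. H2-DMa stood at 76.0%, H2-DMb1 at 72.2%, Ciita at 34.8% and H2-DMb2 at 27.8%. For these last 4 of the 8 genes, all 3 Flox_PA libraries lay below all 3 Flox_BSA libraries, where 10.3% of the genes with a value above 0 did so. Among the tested genes, 2 of 6 were so separated, where 16.9% of genes tested were. H2-Eb1 alone of the 8 lay higher in every Flox_PA library, where 11.5% of genes did. These groupings were made after the values had been seen.

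H2-DMb1 was at 3.80, 4.10 and 5.01 FPKM in Flox_PA, a difference of -0.40 from Flox_BSA (95% interval -0.67 to -0.12) with an adjusted p of 0.154 in limma. H2-DMa was at 2.47, 3.42 and 3.01 FPKM, a difference of -0.31 (-0.57 to -0.04) with an adjusted p of 0.255. Neither passed. H2-DMb1 passed in 2 of the other fits: its adjusted p was 0.0369 when only the Flox libraries were fitted, and 0.00228 with array weights. Those fits called 1543 and 3641 of the 9743 genes tested, against 215 in the reported fit. Across all alternatives its adjusted p ran from 0.00228 to 0.541. With array weights H2-DMa (adjusted p = 0.0232) and H2-Eb1 (adjusted p = 0.0291, higher with PA) passed too, and without the filter on low values so did H2-DMb2 (adjusted p = 0.0395). Reads of Ciita summed to 39 in Flox_BSA and 13 in Flox_PA, a ratio of 2.91 at equal depth (95% exact counting interval 1.52 to 5.94). For H2-DMb2 they were 31 and 8, a ratio of 3.76 (1.69 to 9.46). These intervals cover counting error only.

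**Figure D3:**
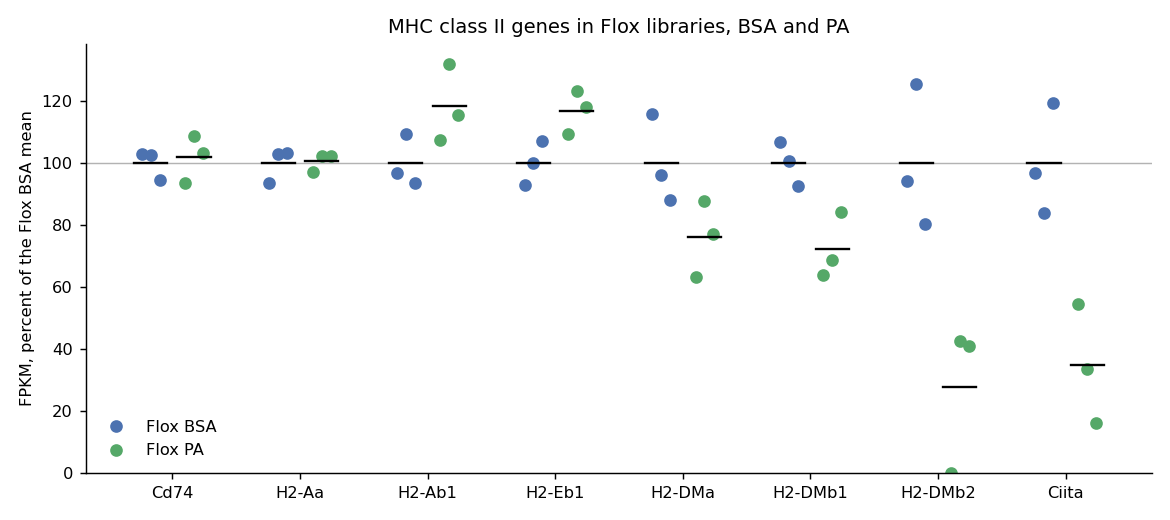
FPKM of the 8 class II genes in the 6 Flox libraries, as a percent of the Flox_BSA mean of each gene. Points are libraries and bars are group means. The PA libraries of H2-DMa, H2-DMb1, H2-DMb2 and Ciita all lie below the BSA libraries. Those of H2-Aa lie within the BSA range, and for Cd74 1 PA library lies below that range and 2 above it.

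As a share of the I-A chains, DM was at 8.41, 6.76 and 6.69% in Flox_BSA and at 4.52, 4.75 and 5.43% in Flox_PA, computed as H2-DMa plus H2-DMb1 over H2-Aa plus H2-Ab1. The same share was 15.96 to 64.5% in HKO_BSA and 13.7 to 40.1% in HKO_PA, above every Flox library. The 64.5% came from HKO_BSA 2, with 7 H2-DMa, 5 H2-DMb1, 5 H2-Aa and 15 H2-Ab1 reads. H2-DMb1 to H2-DMa was 1.41 to 1.61 in Flox_BSA and 0.691 to 0.947 in HKO_BSA. In PA these ratios overlapped between genotypes. With PA in Flox, 11 of 14 tested macrophage markers did not pass. Vsig4 fell by 0.93 (adjusted p = 0.0303, limma), Timd4 fell by 0.55 (adjusted p = 0.0456) and Cd14 rose by 0.72 (adjusted p = 0.0239), where 2.21% of all genes tested were called in either direction. The summed markers overlapped between Flox_BSA and Flox_PA, and their part in the DM values was not tested.

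In HKO, none of the 6 tested genes passed for PA. The widest difference was that of H2-Ab1, 0.37 (95% interval -0.17 to 0.90, adjusted p = 0.41 in limma), and the first HKO_PA library held the highest value. Without both HKO libraries numbered 1 it was again 0.37 (adjusted p = 0.0903). It was 0.65 (adjusted p = 0.114) without HKO_BSA 1 alone, 0.09 without HKO_PA 1 alone and 0.20 without HKO_BSA 3, and it stayed above 0 in all 26 alternatives. For the interaction, the PA effect in HKO minus that in Flox, H2-DMb1 had 0.47 (0.08 to 0.86, adjusted p = 0.228) and H2-Eb1 -0.37 (-0.90 to 0.17, adjusted p = 0.433). H2-DMb1 means in HKO, 0.223 FPKM with BSA and 0.292 FPKM with PA, lie under the pseudocount of 1 FPKM. Its HKO difference, 0.07, thus had little room to fall, and its interaction largely repeats the Flox difference of -0.40. The H2-Eb1 value was -0.16 without both HKO libraries numbered 1, -0.16 without HKO_BSA 1 alone and -0.59 without HKO_BSA 2. That of H2-DMb1 was 0.51 without both. Only the fit with array weights called any of these, with adjusted p-values of 0.0256 for H2-Ab1 with PA in HKO, and 0.0389 and 0.0375 for the interaction of H2-DMb1 and H2-Eb1. Of all 9743 genes tested, that fit called 1532 for PA in HKO and 1668 for the interaction.

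Macrophage markers fell in HKO beside the class II genes. Of the 16, the 14 tested all fell in BSA and all fell in PA, with a median difference of -4.11 and -3.48. Of all genes tested, 10.8% fell in BSA and 18.8% in PA. Clec4f, Vsig4, Timd4 and Fcgr1 met the filter only through Flox, so their falls are not independent of it. The lowest differences of the 14 in BSA were -5.23 for Cd5l, -4.52 for Marco, a scavenger receptor, -4.38 for C1qb, a complement chain, and -4.29 for Csf1r. In Flox_BSA over HKO_BSA the means of the 14 differed between 1.41-fold for Cd14, the endotoxin coreceptor, and 107-fold for Fcgr1, an Fc receptor, and the median over all 16 was 23.4-fold. Cd74, H2-Aa and H2-Ab1 had folds of 71.7, 68.1 and 68.7, and 2 of the 16 markers, Fcgr1 and Cd163, exceeded each of these. H2-Eb1, at 18.5-fold, was exceeded by 12, and H2-DMa, at 14.2-fold, by 13. H2-DMb1, at 26.7-fold, was exceeded by 4.

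Within each library, the summed class II level was 0.223 to 0.248 of the summed macrophage markers in Flox_BSA and 0.0253 to 0.0490 in HKO_BSA. That sum is uneven: Cd14 made up 10.45% of it in Flox_BSA and 61.7% in HKO_BSA. Without Cd14 the class II ratio was 0.251 to 0.277 in Flox_BSA and 0.0726 to 0.119 in HKO_BSA. Against single markers the direction differed. Cd74 to Cd5l, a macrophage apoptosis inhibitor, was 1.08 ± 0.0560 in Flox_BSA and 0.624 ± 0.0325 in HKO_BSA (SD, n = 3). Cd74 to Csf1r, the macrophage growth factor receptor, was 4.41 ± 0.403 and 1.58 ± 0.403. Cd74 to Fcgr1 was higher in HKO_BSA, at 26.1 ± 3.66 against 17.1 ± 2.79. The part of macrophage content in the class II difference was not tested. These single markers were chosen after the values had been seen.

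**Figure D4:**
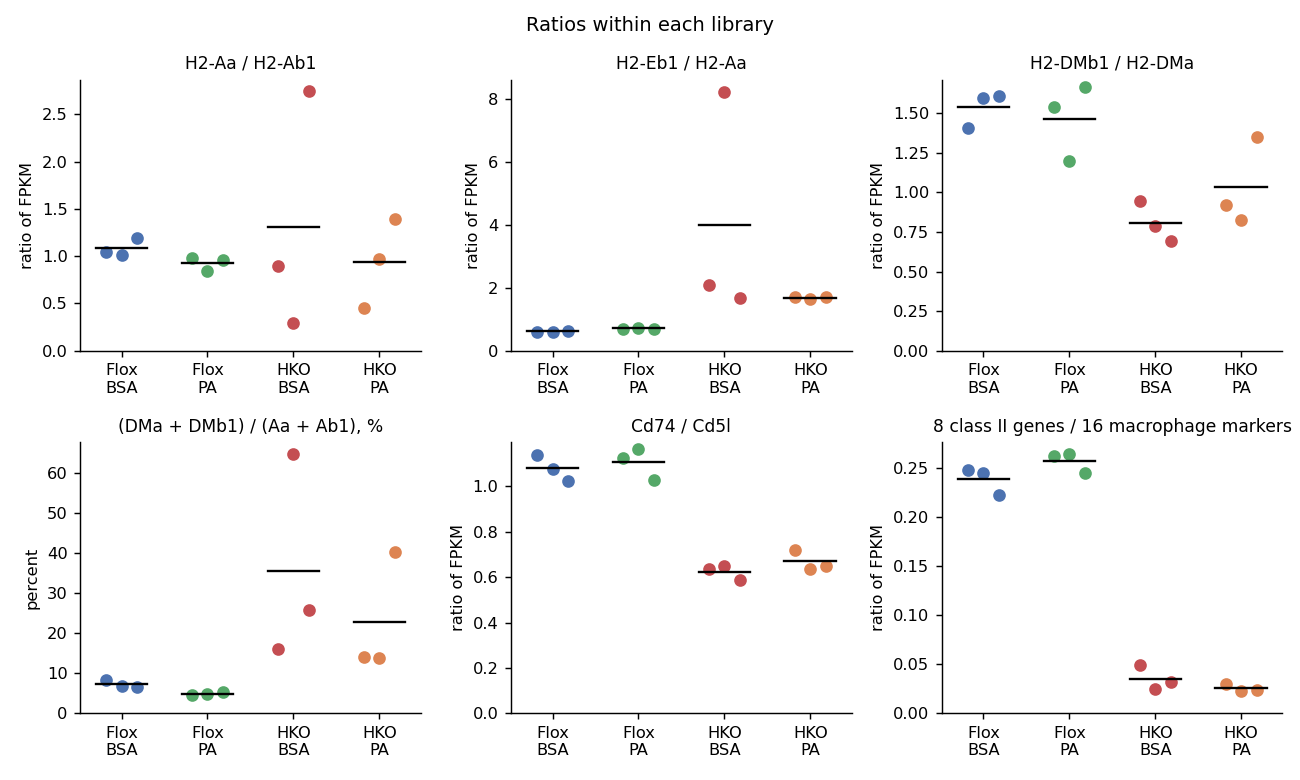
Ratios of FPKM within each library, with points for libraries and bars for group means. H2-Eb1 to H2-Aa and the DM share lie higher in every HKO library than in any Flox library, and Cd74 to Cd5l and the class II sum to the macrophage sum lie lower. Cd14 makes up 61.7% of the macrophage sum in HKO_BSA and 10.45% in Flox_BSA.

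Markers of the other professional presenting cells were low, and their sums too were lower in HKO. Not every gene followed its sum. Zbtb46, a listed dendritic cell marker, averaged 0.127 FPKM in Flox_BSA and 0.208 FPKM in HKO_BSA, with no overlap. In PA its means were 0.239 FPKM in Flox and 0.220 FPKM in HKO. Fcer2a, a listed B cell marker, averaged 0 in Flox_BSA and 0.00695 FPKM in HKO_BSA. The 9 dendritic cell markers summed to 1.68 to 2.65 FPKM in Flox and 0.368 to 0.593 FPKM in HKO, with Cd209a and Siglech at 0 in all libraries. The most abundant of them were Ccr7, a chemokine receptor, at 0.664 FPKM in Flox_BSA and 0.0950 FPKM in HKO_BSA, and Batf3, a transcription factor, at 0.938 and 0.0791 FPKM, 11.9-fold lower in HKO. The 8 B cell markers summed to 1.25 to 1.56 FPKM in Flox and 0.115 to 0.395 FPKM in HKO. Of these Cd22, an inhibitory receptor, averaged 0.834 FPKM in Flox_BSA and 0.0241 FPKM in HKO_BSA, 34.6-fold lower. Pax5, the B cell transcription factor, averaged 0.376 and 0.198 FPKM, and Ms4a1, the gene of CD20, 0.00281 and 0 FPKM. The 9 T and NK cell markers summed to 0.656 to 1.58 FPKM in Flox and 0.0226 to 0.153 FPKM in HKO, with Nkg7, a granule protein, at 0.531 FPKM in Flox_BSA and 0 in HKO_BSA and Lck, a T cell kinase, at 0.268 and 0.0858 FPKM. None of the 3 sums overlapped between genotypes, and their part in the class II difference was not tested. None of these 26 genes reached the filter, so none was tested. Of 5 tested leukocyte genes all fell in BSA, where 10.8% of all genes tested fell. Among them were Fcer1g, by 4.34, and Tyrobp, by 4.29, adaptors of activating receptors. Of 6 neutrophil markers only S100a8 was tested, and it fell by 3.56 (adjusted p = 3.95e-09, limma).

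Tested markers of the other liver cells had smaller differences or opposite ones. Of 4 tested endothelial markers 3 fell in HKO in BSA, with Cdh5, the endothelial cadherin, at -1.13 and Lyve1, a hyaluronan receptor, at -0.64, and 1 fell in PA. Of those under the filter, Stab2, Kdr and Tek had lower means in HKO_BSA than in Flox_BSA, and Clec4g was higher. Clec4g averaged 0.129 FPKM in Flox_BSA and 0.420 FPKM in HKO_BSA. In PA it averaged 0.0400 FPKM in Flox and 0.587 FPKM in HKO, with no overlap in either treatment. Of 2 tested cholangiocyte markers Sox9 rose by 0.73 in BSA, where 9.63% of all genes tested rose, and Spp1, the gene of osteopontin, did not pass. Both rose in PA, where 16.9% rose. None of the 8 stellate cell markers was tested, and their sum was low. It was 0.651 to 0.804 FPKM in Flox_BSA and 0.290 to 0.353 FPKM in HKO_BSA. In PA it was 0.471 to 0.480 FPKM in Flox and 0.232 to 0.286 FPKM in HKO. The stellate sum was thus lower in HKO without overlap in both treatments. Dcn and Reln, matrix proteins, averaged 0.234 and 0.184 FPKM in Flox_BSA and 0.0971 and 0.122 FPKM in HKO_BSA. Of 10 hepatocyte markers 3 rose in BSA and 5 in PA, and none fell. Tat, an amino acid transaminase, rose by 0.96 in BSA, and Alb, the gene of albumin, had a difference of 1.16 that did not pass (adjusted p = 0.0644, limma). The share of reads from the mitochondrial genome was 2.21 to 4.34% in Flox and 4.10 to 8.20% in HKO. The part of these shifts in the class II values was not tested.

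The proteases, the protease inhibitor and the reductase of class II compartments went in both directions. Of 9 tested genes, 5 fell in HKO in BSA, Ctsl rose and 3 did not pass, with a median of -0.70. Ctss, cathepsin S, the protease that makes the last cut of the invariant chain in macrophages and dendritic cells, averaged 109 FPKM in Flox_BSA and 3.51 FPKM in HKO_BSA, a difference of -4.63 (adjusted p = 2.34e-10, limma). Lgmn, an asparaginyl endopeptidase, fell by 1.89, and Ifi30, the thiol reductase GILT, fell by 0.98. Ctsl, cathepsin L, rose by 0.55 (adjusted p = 0.0298). With PA in Flox, Ctss averaged 68.2 FPKM, and its difference of -0.66 did not pass (adjusted p = 0.0935).

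Of 6 tested RFX and NF-Y subunits, the DNA-binding partners of CIITA, Nfyb rose by 0.42 in BSA (adjusted p = 0.0391, limma) and the other 5 did not pass. In PA none of the 6 passed. Rfx5, the subunit with the DNA-binding domain, averaged 0.990 FPKM in Flox_BSA and 1.09 FPKM in HKO_BSA. Nfya had a difference of -0.37 in BSA with an adjusted p of 0.111, and its means differed 1.48-fold with overlapping libraries. Creb1, the gene of the CREB protein, lay under the filter and was not tested. Its level was 0.808 ± 0.139 FPKM in Flox_BSA and 0.519 ± 0.0672 FPKM in HKO_BSA (SD, n = 3), 1.56-fold lower with no overlap. In PA its means were 0.478 FPKM in Flox and 0.544 FPKM in HKO, and the libraries overlapped.

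Of 9 tested genes of interferon gamma signalling and of Ciita induction, 5 fell in HKO in BSA and 5 in PA, with medians of -0.45 and -0.48. Spi1, the myeloid transcription factor PU.1, fell by 3.67 in BSA, from 28.7 to 1.34 FPKM. Irf8, a myeloid interferon regulatory factor, fell by 1.33. The receptor chains Ifngr1 and Ifngr2 did not pass, with differences of 0.28 and -0.18. Ifng, the cytokine itself, averaged 0.0293 FPKM in Flox_PA and was at 0 in the other groups.

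Among costimulatory genes, 3 were tested and all 3 fell in BSA: Cd274, which encodes the checkpoint ligand PD-L1, by 1.70, Icam1 by 0.97 and Cd40 by 0.62. In PA 2 of them fell. Of all genes tested, 10.8% fell in BSA and 18.8% in PA. Cd80 and Cd86, ligands of CD28, lay under the filter at 0.369 and 1.13 FPKM in Flox_BSA and at 0.0276 and 0.0621 FPKM in HKO_BSA.

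Class I presentation is carried by nearly all nucleated cells. Of 11 tested genes 6 fell in BSA and 8 in PA, none rose, and the medians were -0.60 and -1.09. Psmb9 and Psmb8, immunoproteasome subunits, fell by 1.89 and 1.73 in BSA, and Tap1, a peptide transporter, fell by 1.48. H2-K1, a class I heavy chain, fell by 0.81. B2m, the shared light chain, had -0.49 in BSA (adjusted p = 0.108, limma). The BSA median of the 6 class II genes was -4.45, and no test compared the lists.

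**Figure D5:**
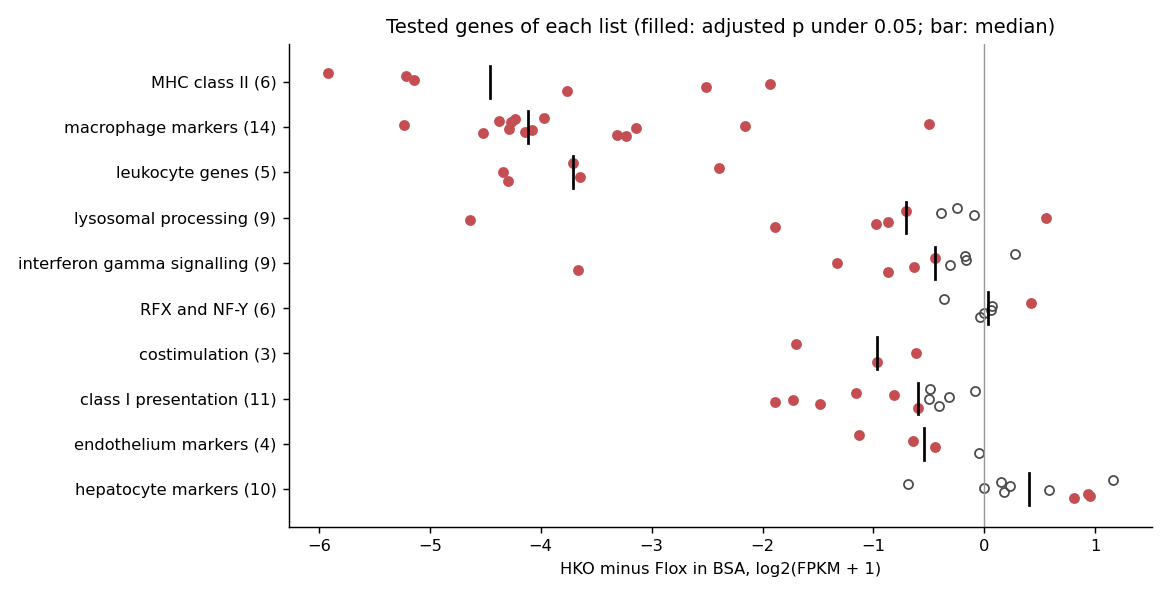
Differences of HKO against Flox in BSA on the log2(FPKM + 1) scale for the tested genes of each list, with the number tested in parentheses. Filled points passed an adjusted p of 0.05 and bars are list medians. Class II genes and macrophage markers hold the lowest medians, at -4.45 and -4.11, and the RFX and NF-Y subunits have a median of 0.03.

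Of the 8 genes, 6 lie within 181.018 kb of chromosome 17, from 34135182 to 34316199 in GRCm38, so their neighbours give a local comparison. The deposited table has 9 other genes in this span. Of these 4 were tested, and Psmb9, Tap1 and Psmb8 fell in HKO in BSA while Tap2 did not pass. In the 200 kb on either side 11 of 37 genes were tested. Of these H2-K1 and the class I pseudogene H2-K2 fell in BSA, where 10.8% of all genes tested fell, and 9 did not pass. In PA all 4 tested genes of the span fell, Tap2 by 0.87 (adjusted p = 0.0105, limma). On the flanks 6 of 11 fell in PA, where 18.8% of all genes tested fell: H2-K1, H2-K2, Rgl2, Vps52, Wdr46 and Ring1. The last 4 fell by 0.43 to 0.48. The median of the 11 was -0.18 in BSA and -0.47 in PA. Brd2, the nearest tested gene upstream of H2-DMa, differed by -0.14 in BSA (adjusted p = 0.686) and by -0.42 in PA (adjusted p = 0.115). The remaining class II chains of the region were at or near 0: H2-Oa, H2-Ob and H2-Eb2 averaged 0.0414, 0.0169 and 0.0315 FPKM in Flox_BSA and 0 in HKO_BSA.

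Across the 12 libraries the gene whose log2 profile was most like the mean of the 6 tested members was Cd5l, with a Pearson r of 0.9996. Then came Clec4a2, Ccl6, Oas1a, Hk3, Ckb, Laptm5, Csf2ra, Myo1g and Dok2, down to 0.9976. Between pairs of the 6 members, r ran from 0.975 for H2-Ab1 and H2-DMa to 0.997 for H2-Aa and H2-Eb1. The libraries of the 2 genotypes form separate clusters in these genes, so the coefficients reflect that gap and are given as a description without a test. Ccl6, a chemokine, fell from 110.6 to 0.936 FPKM in BSA, and Csf2ra, a receptor chain for GM-CSF, from 23.0 to 5.47 FPKM.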

How the data were processed

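RNA from primary hepatocytes was extracted with an RNeasy Plus Mini Kit and made into libraries with an NEBNext Ultra RNA kit, per the labels' protocols. The build is GRCm38 (mm10), per the submitters' processing notes; the sources used here name no aligner, counter, strandedness or annotation release. The authors deposited FPKM values per gene and library, with the gene length they divided by. Reads were computed back from value and length, and 100% of entries with up to 1000 reads came out whole to a tolerance of 0.01.

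One limma model (limma 3.58.1, R 4.3.3) with a trended variance prior gave 4 group means on log2(FPKM + 1) for 9743 genes averaging 1 FPKM or more. The model gave 5 comparisons, with two-sided p-values adjusted by Benjamini-Hochberg over all genes tested. The filter averaged Flox and HKO libraries together, so genes high in Flox alone could meet it, among the members and in the other lists. Counts of such genes falling in HKO are not independent of the filter. The procedure was run on simulated data with independent normal log values and changes planted in HKO_BSA only, in genes of higher level. That run did not cover changes in low genes such as the DM chains, outlying libraries or pairing. Members and gene lists were chosen with earlier results of these data known. Named genes are all 8 members, the 2 to 4 genes of each other list with the largest difference in HKO against Flox in BSA (in lists with none tested, the 2 with the highest mean), and the 10 protein-coding genes most correlated with the tested members. Genes beyond this rule were added after their values were seen: Rfx5, Creb1, Ifngr1, Ifngr2, Ifng, Ctsl, Cd80, Cd86, H2-K1, B2m, Cd14, Vsig4, Timd4, Cd163, Fcgr1, Cd209a, Siglech, Ms4a1, H2-Ob, H2-Ea-ps, and overlapping or neighbouring genes. So were Zbtb46, Fcer2a, Clec4f, Clec4g, Stab2, Kdr and Tek. Alternatives were other pseudocounts, filters and scalings, weights, a replicate block, voom on computed reads, and omitted libraries. Figures used matplotlib 3.10.9. Values of some single genes of the lists are not reported here.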

Additional observations from a re-analysis of the deposited data

How the results depend on the processing

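The calls of all 6 tested class II genes between genotypes kept their direction and passed in each alternative in which they were tested, 25 for BSA and 25 for PA. Their number was 4 where a filter at 5 FPKM removed H2-DMa and H2-DMb1, and 8 in BSA without a filter, which brought in H2-DMb2 and Ciita. Leaving out each library in turn gave 6 to 6 calls in both genotype comparisons and 0 to 0 calls for PA in Flox, for PA in HKO and for the interaction. For PA in Flox the number called was 1 without a filter (H2-DMb2), 3 with array weights (H2-Eb1, H2-DMa, H2-DMb1) and 1 with only the groups compared (H2-DMb1). Over all genes these fits called 237 of 23820, 3641 of 9743 and 1543 of 9743. Array weights also gave 1 call for PA in HKO (H2-Ab1), where 1532 of 9743 genes were called. For the interaction they gave 2 (H2-Eb1, H2-DMb1), where 1668 of 9743 were called. The cause was not tested. No difference that passed changed sign in any alternative. Values near 0 that did not pass did. With quantile normalization Cd74 and H2-Aa for PA in Flox were at -0.0694 and -0.0585 and H2-DMb1 for PA in HKO at -0.0138. For PA in Flox, H2-Aa was at -0.0133 with median of ratios scaling and at -0.0229 with voom, and Cd74 at -0.0079 with voom. With array weights H2-Aa was at -0.072 for PA in HKO and at -0.12 for the interaction, and H2-DMb1 at -0.00065 for PA in HKO. Without both HKO libraries numbered 1, H2-Eb1 for PA in HKO was at 0.0564. Leaving out each library in turn, PA in Flox ran from -0.0233 to 0.085 for Cd74 and -0.0359 to 0.0344 for H2-Aa. PA in HKO ran from -0.0629 to 0.336 for Cd74, -0.201 to 0.371 for H2-Aa, -0.365 to 0.0608 for H2-Eb1, -0.0701 to 0.0455 for H2-DMa and -0.0383 to 0.159 for H2-DMb1. The interaction ran from -0.0881 to 0.311 for Cd74, -0.21 to 0.361 for H2-Aa and -0.149 to 0.412 for H2-Ab1.

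The titles number the libraries within each genotype, and no label says whether the same number with BSA and PA marks 1 preparation. Same-numbered libraries correlated between -0.484 and 0.363 in their deviations from the group means, and for PA not every pair was above 0.1 in either genotype, so the libraries were not treated as paired. In no comparison did every library correlate best with its own number. With the replicate block the members called stayed at 0 for PA in Flox, 0 for PA in HKO, 6 and 6 between genotypes and 0 for the interaction. With the replicate block set within each genotype they stayed at 0, 0 and 0 for the 2 PA comparisons and the interaction, while the calls over all genes were 110 for PA in Flox, 113 for PA in HKO and 3 for the interaction. Counts over all genes moved more. They ran over the alternatives from 64 to 3641 for PA in Flox (215 reported), 42 to 1532 for PA in HKO (286), 1062 to 5764 for HKO against Flox in BSA (1994), 2280 to 5004 in PA (3475) and 0 to 1668 for the interaction (26). Single libraries moved these counts too: the genotype count in BSA was 1329 without Flox_BSA 1, that in PA was 2280 without Flox_PA 3, the count for PA in Flox was 64 without Flox_PA 2 and 394 without HKO_BSA 1, that for PA in HKO 129 without HKO_BSA 2 and 776 without HKO_PA 3, and the interaction 0 without Flox_PA 2 and 265 without HKO_PA 3. Depth limits H2-DMb2, Ciita and the HKO values of the DM chains, which rest on at most 15 reads per library.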
